A study of Mus musculus with 9 samples.

Results

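Chemokine receptors are the surface proteins through which blood cells read chemokine gradients, and 8 of them were followed here in mouse blood stem and progenitor cells that had lost Runx1 or carried a fragment of it. They are Cxcr2, Cxcr4, Cxcr3, Ccr1, Ccr2, Ccr7, Ccr9 and Cx3cr1. Their members on the array are the probe sets annotated to these 8 gene symbols, 14 of the 22626 probe sets that were not controls. Cxcr2, Cxcr4, Cxcr3 and Ccr7 had 1 probe set each, Ccr1 and Cx3cr1 had 2 each, and Ccr2 and Ccr9 had 3 each. Each gene was represented by its brightest probe set, which made the receptors 8 of 12393 genes.

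RNA came from KSL cells, the bone marrow fraction sorted as c-Kit+, Sca-1+, Lin- and IL7Ra-, which holds haematopoietic stem cells and multipotent progenitors, and each of 9 samples was hybridised to 1 Affymetrix array. All mice were on a C57BL/6 background and no ages are given in the labels. The RUNX1(41-214) group (n = 3) comprised cells transduced with a retroviral vector that expresses the named stretch of RUNX1, a piece that spans the DNA-binding Runt domain, and was sampled 4 months after transduction and transplantation. The Runx1KO group (n = 3) carried Runx1 floxed/floxed alleles with MxCre+/-, and the Control group (n = 3) carried the same floxed alleles without Cre (MxCre-/-). Both of these groups were sampled 3 months after poly IC treatment. Cre in this model is driven by the interferon-inducible Mx promoter, which poly IC switches on in many cell types besides stem cells. No poly IC is named for the RUNX1(41-214) group, no group with an empty vector was among the 9 arrays, and the time of sampling differed. The fragment therefore cannot be told apart from transduction, transplantation, the absence of poly IC and the time of sampling. The replicates are called biological in the labels, with no word on whether a replicate was 1 mouse or a pool, and the p-values measure the spread between these samples.

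Chemokine receptors span the membrane with 7 helices and signal mainly through inhibitory G proteins, which turn on the Rac and PI3-kinase machinery of cell movement. Cxcr4 and its ligand Cxcl12 hold stem cells in the marrow, whereas Cxcr2 and Ccr2 are best known for bringing neutrophils and monocytes out of it. Ccr9 and Ccr7 guide lymphoid progenitors to the thymus, where their ligands Ccl25, Ccl19 and Ccl21 are made. Transcripts of several of these receptors first appear in multipotent progenitors, before the mature cells that use them are formed.

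Median signals per array ran from 125 to 147.2, in the arbitrary linear units of the deposited values. The log2 ratio of 3′ to 5′ Gapdh control signal, a measure of RNA integrity, was 2.13 in Runx1KO replicate 3 and 1.85 in Control replicate 2 and between 0.979 and 1.29 in the other 7, so the receptor results are also given without this pair of arrays where that matters. Late neutrophil transcripts such as S100a9 and Camp were highest on 2 arrays, RUNX1(41-214) replicate 1 and Control replicate 1. Another, Lcn2, was instead highest on RUNX1(41-214) replicate 2 (164.48), and S100a8 was at 117.84 on Runx1KO replicate 1. S100a9 had a signal of 204.86 on RUNX1(41-214) replicate 1 and 145.86 on Control replicate 1, and between 1.37 and 22.92 on the other 7. Without both of these arrays, an alternative chosen after seeing the data, the receptors past the threshold described below numbered 3 in RUNX1(41-214) against Control, 0 in Runx1KO against Control and 0 in RUNX1(41-214) against Runx1KO. The sorting markers Kit and Cd34 averaged 11.50 and 11.87 on the log2 scale over all arrays, where the median over all genes was 7.96. Of 11 gate genes measured, 1 rose and 1 fell in RUNX1(41-214) against Control cells, with Kit at 0.57 ± 0.14 (adjusted p = 0.0415) and Il7r at -3.69 ± 0.51 (adjusted p = 0.00150). Sca-1 (Ly6a) was not analysed here. Runx1 itself was at 11.45 ± 0.27 in Runx1KO cells and 10.40 ± 0.45 in Control cells (SD over 3 arrays each, log2 scale; adjusted p = 0.0740), and since the deleted part of the gene relative to the probe set is not known here, this level does not check the deletion. As a yardstick for dim signals, 17 of 19 genes restricted to tissues outside blood (such as albumin and cardiac myosin) averaged at or below 6.25 on the log2 scale. Probes differ in how brightly they report, so the receptors are not ranked by level, and the dim range and the summed signals of gene lists are rough guides.

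Among the 8 receptors, Ccr9, Ccr2 and Ccr7 fell and Cxcr2 rose in RUNX1(41-214) cells against Control cells. That was 4 of 8, where 4.28% of all 12393 genes passed an adjusted p of 0.05 (1.73% higher and 2.56% lower). In Runx1KO cells Ccr9 fell, 1 of 8 against 0.347% of all genes (0.234% higher and 0.113% lower). Between RUNX1(41-214) and Runx1KO cells Ccr2 was lower, 1 of 8 against 1.36% of all genes (0.299% higher and 1.06% lower). At an unadjusted p under 0.05 the counts were 4 of 8 in RUNX1(41-214) against Control, where 15.5% of all genes passed, 3 of 8 in Runx1KO against Control (7.22%) and 4 of 8 in RUNX1(41-214) against Runx1KO (10.6%). After adjustment, Cxcr4, Cxcr3, Ccr1 and Cx3cr1 passed in none of these 3 comparisons. The median log2 fold change of the 8 was -0.93 for RUNX1(41-214) against Control, -0.37 for Runx1KO against Control and -0.33 for RUNX1(41-214) against Runx1KO, beside 0.018, -0.004 and 0.016 over all genes. The receptors were chosen with earlier results of these arrays known, and both comparisons against Control share the same 3 Control arrays, so the counts are descriptions of these genes and the comparisons are not independent of each other.

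**Figure D1:**
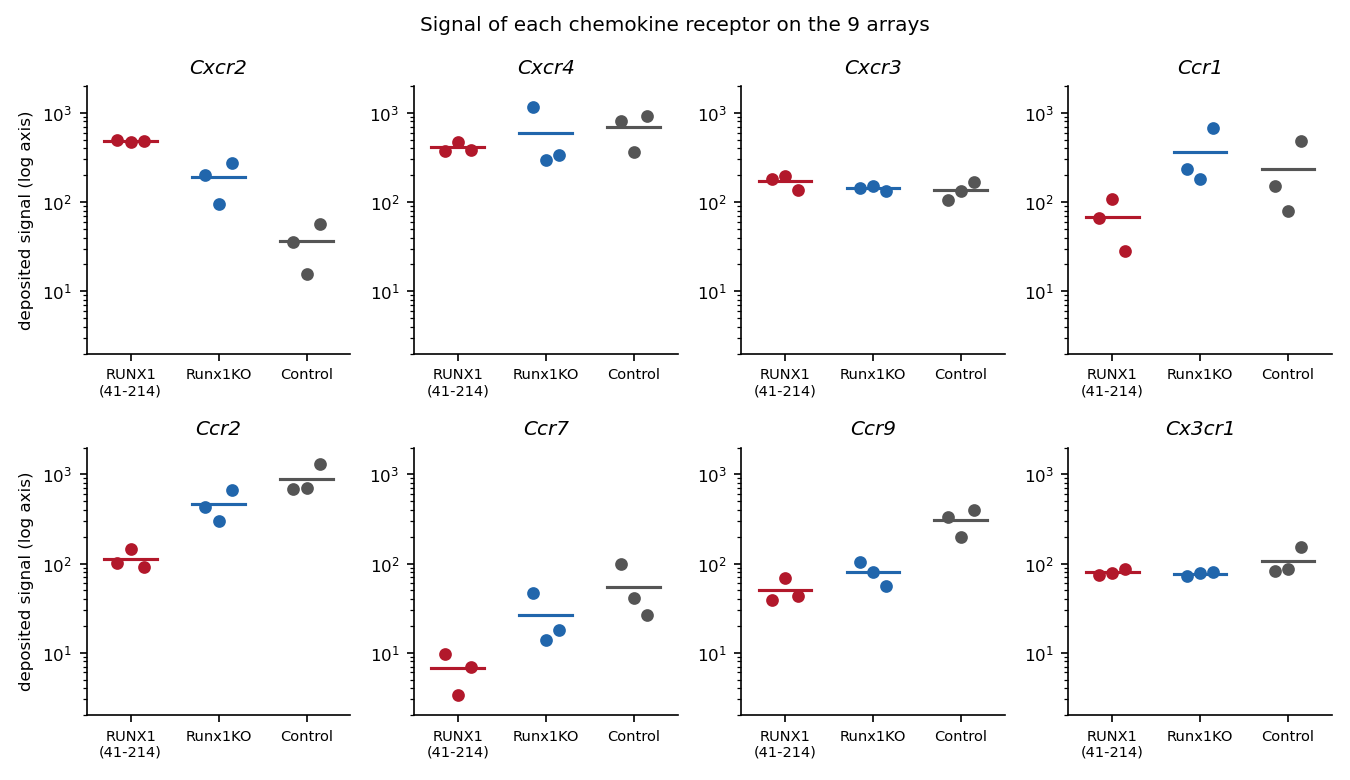
Deposited signal of the probe set that stands for each receptor (log axis) on each of the 9 arrays, with RUNX1(41-214), Runx1KO and Control from left to right and a bar at each group mean. For Cxcr2 the RUNX1(41-214) arrays lie at 465.24 to 497.69, above Runx1KO (95.64 to 276.49) and Control (15.70 to 57.23), and for Ccr2 and Ccr7 the RUNX1(41-214) arrays lie below all others.

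Ccr9 and Ccr7 are the receptors that direct lymphoid progenitors to the thymus. The brightest Ccr9 probe set (1427419_x_at) had signals of 39.31, 68.95 and 43.77 in RUNX1(41-214), 102.95, 80.37 and 56.07 in Runx1KO, and 333.33, 200.47 and 397.87 in Control cells. All 6 RUNX1(41-214) and Runx1KO arrays lay below all 3 Control arrays, and the RUNX1(41-214) and Runx1KO arrays overlapped. On the log2 scale after normalization Ccr9 was at 6.10 ± 0.36 in RUNX1(41-214), 6.53 ± 0.32 in Runx1KO and 8.28 ± 0.49 in Control cells (SD, n = 3 each). The log2 fold change was -2.18 ± 0.29 (SE, adjusted p = 0.00132) for RUNX1(41-214) and -1.74 ± 0.29 (adjusted p = 0.0318) for Runx1KO against Control. The RUNX1(41-214) level fell to within the dim range set by tissue-restricted genes, so this fold is limited by background. Between RUNX1(41-214) and Runx1KO the difference was -0.44 with a 95% interval of -1.08 to 0.20 (adjusted p = 0.675). In a sorted population, fewer cells with a transcript and less transcript per cell cannot be told apart, here or in any result that follows.

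The other Ccr9 probe sets gave folds of the same sign. Probe set 1421920_a_at had signals of 8.69, 16.43 and 9.42 in RUNX1(41-214), 23.47, 19.12 and 19.53 in Runx1KO, and 158.28, 41.00 and 77.41 in Control cells. Tested over all 22626 probe sets, where 3.05% passed in RUNX1(41-214) and 0.137% in Runx1KO against Control, it changed by -1.77 ± 0.32 in RUNX1(41-214) (adjusted p = 0.0129) and was at -1.34 ± 0.32 in Runx1KO (adjusted p = 0.198). The dimmest, 1421919_a_at, was at -0.64 ± 0.25 in RUNX1(41-214) and -0.51 ± 0.25 in Runx1KO against Control and passed in neither. The _x ending of the brightest probe set marks a design whose probes may also bind other transcripts, while the _a ending marks probes shared by transcripts of 1 gene.

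The Ccr9 call in Runx1KO cells was a narrow one. Its adjusted p was 0.0636 and 0.0589 without RUNX1(41-214) replicates 1 and 3, 0.0613, 0.134 and 0.137 without Runx1KO replicates 1, 2 and 3, and 0.0989 and 0.123 without Control replicates 1 and 3. It was 0.0608 when all probe sets were tested 0.0981 with the mean of the 3 probe sets, 0.121 with only the groups compared, 0.0894 with a minimum fold of 1.2 and 0.0577 with the replicate number as a block. Without both arrays of high S100a9 it was 0.195. The fold kept its sign throughout, from -2.02 to -1.20. In RUNX1(41-214) cells Ccr9 passed under all 22 alternatives (adjusted p from 0.000661 to 0.0477, the highest without both arrays of high S100a9).

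Ccr7, the receptor for Ccl19 and Ccl21, gave a dim signal in every group. It was at 9.79, 3.36 and 6.86 in RUNX1(41-214), 46.84, 13.91 and 18.02 in Runx1KO, and 98.40, 40.79 and 26.26 in Control cells. The RUNX1(41-214) arrays lay below all others, and the Runx1KO and Control arrays overlapped. The log2 fold change was -1.47 ± 0.35 (adjusted p = 0.0375) for RUNX1(41-214) against Control, and it was -0.65 ± 0.35 (adjusted p = 0.782) for Runx1KO against Control. All 3 group means, 4.50, 5.32 and 5.97, were within the range of tissue-restricted genes. The size of the fold followed the offset added before taking logs, at -2.66 with an offset of 1 and -0.79 with an offset of 50, and with 50 it did not pass (adjusted p = 0.0689). It also missed the threshold without RUNX1(41-214) replicates 1, 2 and 3 (adjusted p = 0.0829, 0.150 and 0.0988) and without Control replicate 1 (adjusted p = 0.109). The same was so with all probe sets tested (0.0534), with a minimum fold of 1.2 (0.0947) and without both arrays of high Gapdh ratio (0.0583) or of high S100a9 (0.183).

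Part of a list of early lymphoid genes also fell in RUNX1(41-214) cells. Of 10 such genes, 5 fell and 0 rose against Control, namely the immunoglobulin gene Ighm (-2.91 ± 0.20), Il7r, Ltb, Notch1 (-1.67 ± 0.16) and Dntt, the terminal transferase of lymphoid progenitors (-1.93 ± 0.24). The other 5 did not pass, with Rag1 at -3.25 ± 0.89 (adjusted p = 0.0693) and Flt3 at -0.60 ± 0.20 (adjusted p = 0.156). Rag2 was at -0.39, Satb1 at -0.11 and Cd27 at 0.32. In all, 9 of the 10 lay below 0, with a median of -1.43. Against Runx1KO cells, 5 of the 10 fell and 0 rose in RUNX1(41-214) cells. The summed signal of the list was 6712 to 8828 in RUNX1(41-214), 13280 to 22640 in Runx1KO and 18700 to 22520 in Control cells. In Runx1KO cells, where Ccr9 fell, 0 of the 10 passed against Control in limma (1 at an unadjusted p under 0.05) and their median fold was -0.10. Of 12 T and NK cell genes 3 fell in RUNX1(41-214) cells (Nkg7, Gzmb and Gzma) and 1 in Runx1KO cells (Gzmb, -1.26 ± 0.23). In RUNX1(41-214) against Control 4 of the 12 lay above 0, with Cd8a at 0.66 ± 0.22 (adjusted p = 0.152), and the median was -0.06. The list summed to 417.2 to 570.2, 624.2 to 1284 and 1313 to 1614 in RUNX1(41-214), Runx1KO and Control cells. Nkg7 alone was at 119.62 to 249.65, 368.52 to 931.24 and 942.09 to 1243.17. The T cell receptor component Cd3e averaged 4.59 on the log2 scale, in the dim range. The part of these cells in the receptor results was not tested.

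Ccr2, Ccr1 and Cx3cr1 are receptors of the monocyte lineage. Ccr2, which binds Ccl2 and Ccl7 and is needed for monocytes to leave the marrow, had signals of 100.86, 145.39 and 92.10 in RUNX1(41-214), 430.17, 301.65 and 669.78 in Runx1KO, and 686.90, 694.50 and 1294.63 in Control cells on its main probe set (1421186_at). The RUNX1(41-214) arrays lay below all others, and the highest Runx1KO array was just under the lowest Control array in deposited signal, though the groups overlapped after normalization. Ccr2 averaged 7.07 ± 0.36 in RUNX1(41-214), 8.84 ± 0.62 in Runx1KO and 9.76 ± 0.54 in Control cells (log2, SD, n = 3 each). It changed by -2.69 ± 0.35 in RUNX1(41-214) against Control (adjusted p = 0.00103) and by -1.77 ± 0.35 in RUNX1(41-214) against Runx1KO (adjusted p = 0.0280, and 0.0407 over all probe sets, of which 1.08% passed). For Runx1KO against Control it was at -0.92 ± 0.35 (adjusted p = 0.509), with a 95% interval of -1.68 to -0.16.

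The 3 probe sets of Ccr2 all had folds below 0 in RUNX1(41-214) against Control, but of unlike size. On 1421188_at the RUNX1(41-214) arrays also lay below all others, and on 1421187_at they did not. Probe set 1421187_at had 112.32, 153.80 and 98.02 in RUNX1(41-214), 110.70, 163.99 and 120.15 in Runx1KO, and 137.67, 165.61 and 242.01 in Control cells, groups that overlapped, with a fold of -0.39 ± 0.28 in RUNX1(41-214) against Control (adjusted p = 0.601). Probe set 1421188_at was dim, at 6.77, 12.28 and 1.95 in RUNX1(41-214), 17.87, 12.71 and 42.40 in Runx1KO, and 34.74, 16.11 and 181.08 in Control cells, and its fold was -1.56 ± 0.53 (adjusted p = 0.183). With the mean of the 3 the fold of Ccr2 in RUNX1(41-214) against Control was -1.55 and still passed (adjusted p = 0.0303), while against Runx1KO it was -0.85 and did not (adjusted p = 0.393). The call against Runx1KO was also lost without RUNX1(41-214) replicates 1, 2 and 3 (adjusted p = 0.109, 0.0584 and 0.117), without Runx1KO replicates 1 and 3 (adjusted p = 0.0956 and 0.0900) without both arrays of high Gapdh ratio (adjusted p = 0.0823) or of high S100a9 (adjusted p = 0.169), and with a minimum fold of 1.2 (adjusted p = 0.0652).

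**Figure D2:**
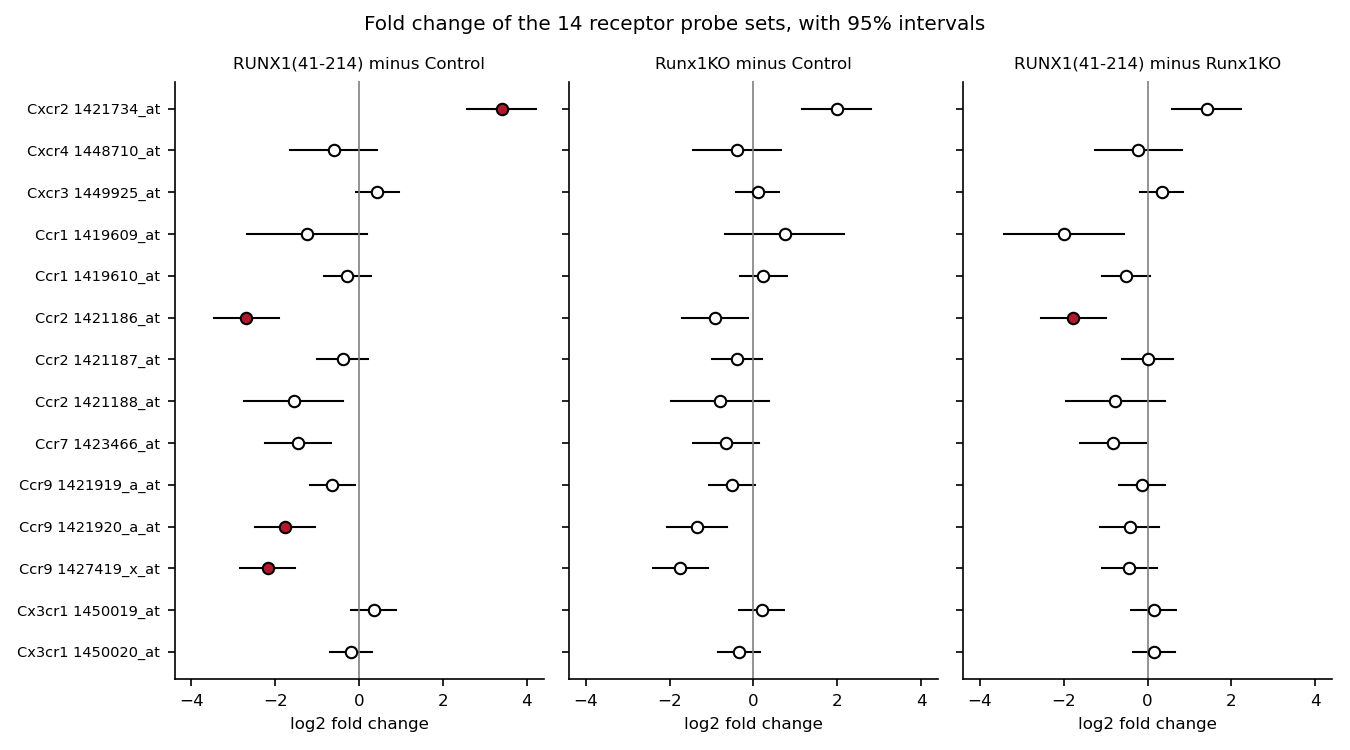
Log2 fold change of each of the 14 receptor probe sets in the 3 comparisons, with 95% intervals from the fit over all 22626 probe sets; filled points passed an adjusted p of 0.05. In RUNX1(41-214) against Control the filled points are Cxcr2 (3.40), 1 of 3 Ccr2 probe sets (-2.69) and 2 of 3 Ccr9 probe sets (-1.77 and -2.18), none is filled in Runx1KO against Control, and in RUNX1(41-214) against Runx1KO it is the same Ccr2 probe set (-1.77).

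Ccr1, a receptor for Ccl3, Ccl5 and Ccl9 on monocytes and neutrophils, varied widely within groups. Its signals were 66.95, 107.17 and 27.95 in RUNX1(41-214), 234.44, 181.34 and 670.64 in Runx1KO, and 149.46, 79.47 and 483.33 in Control cells. The RUNX1(41-214) arrays lay below all Runx1KO arrays and overlapped with Control. The log2 fold change was -2.00 ± 0.64 for RUNX1(41-214) against Runx1KO with an unadjusted p of 0.00902 and an adjusted p of 0.231, so it did not pass. Against Control it was at -1.25 ± 0.64 in RUNX1(41-214) (adjusted p = 0.393) and 0.75 ± 0.64 in Runx1KO (adjusted p = 0.891), and the Runx1KO value was -0.37 without both arrays of high Gapdh ratio. The other Ccr1 probe set stayed between 1.00 and 25.24 on all arrays.

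Cx3cr1, the receptor for fractalkine (Cx3cl1) on monocytes and macrophage progenitors, was nearly level. Its main probe set had 75.20, 78.00 and 86.42 in RUNX1(41-214), 72.18, 78.45 and 79.36 in Runx1KO, and 83.38, 87.72 and 152.90 in Control cells. The Runx1KO arrays lay narrowly below the Control arrays, and the RUNX1(41-214) arrays overlapped with both in deposited signal. The log2 fold change against Control was -0.20 in RUNX1(41-214) with a 95% interval of -0.69 to 0.29 and -0.35 in Runx1KO with an interval of -0.84 to 0.15. The dimmer probe set (1450019_at, from 9.97 to 37.58) had folds of the opposite sign, 0.35 ± 0.24 in RUNX1(41-214) and 0.20 ± 0.24 in Runx1KO, and passed in neither comparison.

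Monocyte and macrophage markers were set beside Ccr2 and moved in both directions. Of 15, 2 rose in RUNX1(41-214) cells against Control (the Fc receptor Fcgr3 by 2.75 ± 0.52 and Ms4a6c by 1.29 ± 0.33) and 1 fell (Mpeg1, -2.20 ± 0.47), with a median of 0.11. Csf1r, the receptor that defines the lineage, was at 0.82 (adjusted p = 0.602), and the list summed to 9063 to 14180 in RUNX1(41-214), 10940 to 15820 in Runx1KO and 7983 to 15590 in Control cells, ranges that overlap. In Runx1KO against Control 0 of 15 passed in limma (3 at an unadjusted p under 0.05), with Fcgr3 at 2.75 ± 0.52 (adjusted p = 0.0527). Against Runx1KO, where Ccr2 was also lower in RUNX1(41-214), 0 of 15 passed in limma (4 at an unadjusted p under 0.05). There 9 of the 15 lay below 0, with a median of -0.14. Of 8 dendritic cell genes, 2 fell in RUNX1(41-214) cells, the integrin Itgax (-1.39 ± 0.22) and the invariant chain Cd74 (-0.93 ± 0.23). Another 2 lay above 0, Bst2 at 1.18 ± 0.37 (adjusted p = 0.115) and H2-Ab1 at 0.17, and the median was -0.44. In Runx1KO cells 0 passed against Control (3 at an unadjusted p under 0.05 in limma), with Cd74 at 0.78 ± 0.23 (adjusted p = 0.275). Cd74 was lower in RUNX1(41-214) than in Runx1KO cells (-1.70 ± 0.23, adjusted p = 0.00335). The part of monocytes and dendritic cells in the Ccr2 result was not tested.

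Cxcr2 is the receptor for Cxcl1, Cxcl2 and Cxcl5 that draws neutrophils out of the marrow, and it is also found on mast cells and megakaryocytes. Its single probe set had signals of 497.69, 465.24 and 485.62 in RUNX1(41-214), 203.12, 95.64 and 276.49 in Runx1KO, and 36.04, 15.70 and 57.23 in Control cells. The 3 groups were fully separate, with RUNX1(41-214) highest and Control lowest, and Control was within the dim range. Mean deposited signals were 483 ± 16.4 in RUNX1(41-214), 192 ± 91.0 in Runx1KO and 36.3 ± 20.8 in Control cells (SD, n = 3 each), ratios of 13.3 and 5.28 over Control that rest on a dim denominator. On the log2 scale Cxcr2 rose by 3.40 ± 0.37 in RUNX1(41-214) against Control (adjusted p = 0.000319). In Runx1KO against Control the fold was 1.99 ± 0.37 with an adjusted p of 0.0518, just short of the threshold. RUNX1(41-214) against Runx1KO gave 1.41 ± 0.37 with an adjusted p of 0.117.

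The Cxcr2 difference between RUNX1(41-214) and Control cells passed under all 22 alternatives, with folds from 2.70 to 3.96, and without both arrays of high S100a9 its adjusted p was 0.0156. The Runx1KO value passed under 5 of the 22, namely median scaling (adjusted p = 0.0290), dim genes left out (0.0256), array weights (0.0403), the replicate number as a block (0.0181) and without Runx1KO replicate 2 (0.0275), with adjusted p from 0.0181 to 0.242 over all 22. Runx1KO replicate 2 was the array with the lowest Cxcr2 signal of that group. The comparison of RUNX1(41-214) with Runx1KO passed under 3 of 22, with array weights (adjusted p = 0.0194), the replicate block (0.0398) and without both arrays of high Gapdh ratio (0.0259).

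Granulocyte markers were set beside Cxcr2. Of 13 granulocyte genes, 1 rose in RUNX1(41-214) cells against Control, the G-CSF receptor Csf3r (0.71 ± 0.18, adjusted p = 0.0474), and 0 passed in Runx1KO cells (1 at an unadjusted p under 0.05 in limma), where Csf3r was at 0.72 ± 0.18 (adjusted p = 0.158). The late granule gene Camp had signals of 201.45, 9.98 and 6.69 in RUNX1(41-214), 22.98, 8.09 and 6.55 in Runx1KO, and 203.93, 7.96 and 5.70 in Control cells, and S100a8 reached 757.53 on RUNX1(41-214) replicate 1 and 439.55 on Control replicate 1. These are the same 2 arrays as for S100a9. The early granule gene Mpo averaged 12.39 on the log2 scale and was at 0.17 in RUNX1(41-214) against Control (adjusted p = 0.755). Elane was at 1.77 ± 0.64 (adjusted p = 0.182) and Prtn3 at 0.39 ± 0.16 (adjusted p = 0.263) in that comparison. There 3 of the 13 granulocyte genes had an unadjusted p under 0.05 in limma. The list summed to 13980 to 17030 in RUNX1(41-214), 11530 to 16550 in Runx1KO and 9958 to 14880 in Control cells. Its median against Control was 0.33 in RUNX1(41-214), with 10 of 13 genes above 0. In Runx1KO it was -0.17, with 4 of 13 above 0. Of 9 genes of mast cells and basophils, 3 rose in RUNX1(41-214) cells against Control (the protease Cpa3 by 3.77 ± 0.28, the histidine decarboxylase Hdc by 3.80 ± 0.58 and the IgE receptor chain Ms4a2 by 1.72 ± 0.24) and 1 fell (Gzmb, -1.37 ± 0.23). The other IgE receptor chain of the list, Fcer1a, was at -1.29 ± 0.53 (adjusted p = 0.257) and the basophil protease Mcpt8 at -0.56 (adjusted p = 0.699), and the median of the 9 was 0.070. In Runx1KO cells Cpa3 rose by 3.04 ± 0.28 and Gzmb fell by 1.26. Of those that did not pass there, Hdc was at 2.60 ± 0.58 (adjusted p = 0.104), Ms4a2 at 0.41, Fcer1a at -0.88 and Mcpt8 at -0.87. In that comparison 4 of the 9 lay above 0, with a median of -0.088. The list summed to 8766 to 10120, 7123 to 7971 and 4259 to 4768 in RUNX1(41-214), Runx1KO and Control cells. Of 9 megakaryocyte and platelet genes 4 rose in RUNX1(41-214) and 3 in Runx1KO cells, Treml1, Itga2b and Gp5 in both and Selp in RUNX1(41-214), with sums of 11990 to 14690, 7207 to 8735 and 3884 to 5271. The mast cell proteases Tpsb2 and Cma1 averaged 6.22 and 5.03 on the log2 scale, in the dim range. The part of mast cells, megakaryocytes and granulocytes in the Cxcr2 result was not tested.

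Cxcr4, which holds stem cells in the marrow niche, passed in no comparison. Its signals were 371.57, 473.92 and 381.23 in RUNX1(41-214), 1165.68, 294.88 and 339.77 in Runx1KO, and 816.65, 359.64 and 926.03 in Control cells. The groups overlapped, and Runx1KO replicate 1 was the highest of all 9 arrays while the other Runx1KO arrays were among the lowest. The log2 fold change was -0.61 in RUNX1(41-214) against Control, with a 95% interval of -1.63 to 0.41, and -0.39 in Runx1KO against Control, with an interval of -1.41 to 0.63. Between RUNX1(41-214) and Runx1KO it was -0.22, and 0.38 without Runx1KO replicate 1.

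Cxcr3, the receptor of activated T cells for Cxcl9, Cxcl10 and Cxcl11, had signals of 181.87, 195.31 and 137.86 in RUNX1(41-214), 142.10, 149.51 and 134.50 in Runx1KO, and 106.39, 132.58 and 165.53 in Control cells. The groups overlapped. Its log2 fold change was 0.44 in RUNX1(41-214) against Control (95% interval -0.07 to 0.94, adjusted p = 0.416) and 0.10 in Runx1KO (interval -0.40 to 0.60).

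Counted by arrays alone, after normalization, 4 of the 8 receptors had groups that did not overlap in RUNX1(41-214) against Control, where 20.3% of all genes did. The count was 3 of 8 in Runx1KO against Control (10.5% of all genes) and 5 of 8 in RUNX1(41-214) against Runx1KO (18.8%). In the F test for any difference among the groups, Cxcr2, Ccr2 and Ccr9 passed (adjusted p = 0.00104, 0.00283 and 0.00275), 3 of 8 beside 3.40% of all genes, and Ccr7 did not (0.100).

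**Figure D3:**
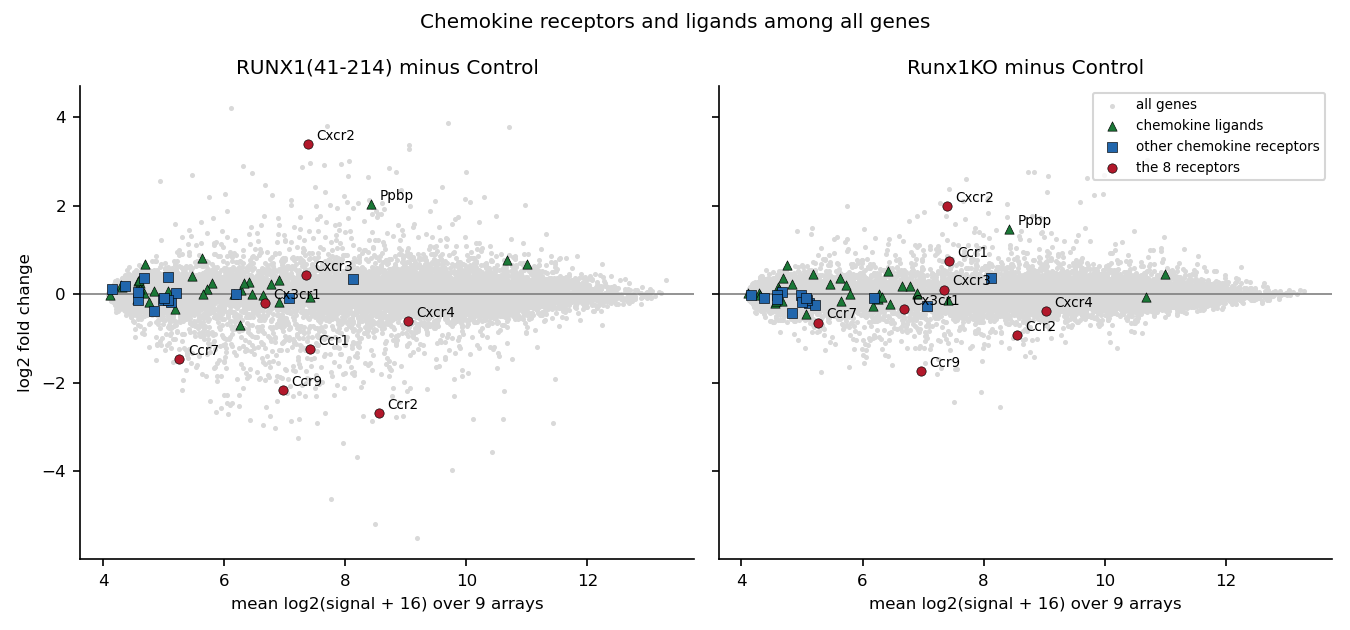
Log2 fold change against the mean log2(signal + 16) over the 9 arrays for RUNX1(41-214) minus Control and Runx1KO minus Control, with all 12393 genes in grey, the 8 receptors as circles, 15 other chemokine receptors as squares and 33 chemokine ligands as triangles. In both panels Cxcr2 is the highest circle (3.40 and 1.99), the lowest circle is Ccr2 on the left (-2.69) and Ccr9 on the right (-1.74), and the 15 squares lie between -0.43 and 0.38. Each gene is shown by its brightest probe set.

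The rest of the receptor family was mostly dim and did not pass. Of 15 other chemokine receptors measured, 0 passed in any comparison in limma (0, 0 and 1 at an unadjusted p under 0.05 in RUNX1(41-214) against Control, Runx1KO against Control and RUNX1(41-214) against Runx1KO), and their median log2 fold change was -0.01 in RUNX1(41-214) and -0.10 in Runx1KO against Control. Ackr2, a scavenging receptor, was at 0.38 ± 0.19 in RUNX1(41-214) (adjusted p = 0.373), and Ccrl2, which binds chemerin, was at 0.33 ± 0.20 there and 0.37 ± 0.20 in Runx1KO, where Ccr4, a T cell receptor for Ccl17 and Ccl22, was at -0.43 (adjusted p = 0.797). These values are from the brightest probe set of each gene, and another probe set of Cxcr6 is given below with its chromosome 9 neighbours. Cxcr1, the close relative of Cxcr2, was not analysed here.

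Few ligand transcripts passed the threshold. Of 33 chemokine ligands 0 passed against Control in limma. At an unadjusted p under 0.05 there were 7 in RUNX1(41-214) and 4 in Runx1KO cells, beside 15.5% and 7.22% of all genes. In RUNX1(41-214) against Runx1KO there were 5, beside 10.6%. The list summed to 6119 to 8226 in RUNX1(41-214), 4530 to 6196 in Runx1KO and 3690 to 5592 in Control cells. After adjustment 1 was lower in RUNX1(41-214) than in Runx1KO cells, the interferon-induced Cxcr3 ligand Cxcl9 (-0.82 ± 0.14, adjusted p = 0.0123). Its level was in the dim range in both, at 4.43 ± 0.10 in RUNX1(41-214) and 5.25 ± 0.13 in Runx1KO cells (log2, SD, n = 3 each). Among ligands of Cxcr2, Ppbp was at 2.03 ± 0.64 in RUNX1(41-214) (adjusted p = 0.125) and 1.48 ± 0.64 in Runx1KO (adjusted p = 0.654) against Control, Cxcl5 at 0.69 in RUNX1(41-214) (adjusted p = 0.0947), and Cxcl1 and Cxcl2 at 0.03 and 0.07. Ccl3, a ligand of Ccr1, was at -0.71 ± 0.18 in RUNX1(41-214) (adjusted p = 0.0513). Ccl9, another ligand of Ccr1, went the other way at 0.69 ± 0.27 (adjusted p = 0.238). Ccl17, a ligand of Ccr4, was at 0.82 ± 0.22 (adjusted p = 0.062), and Pf4 was at 0.76 ± 0.27 (adjusted p = 0.169). The Ccr9 ligand Ccl25 was at -0.003 and the Cxcr4 ligand Cxcl12 at 0.25 in the same comparison, and of 8 stromal and endothelial genes 0 passed in any comparison in limma (0, 1 and 0 at an unadjusted p under 0.05).

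Downstream of the receptors, 1 of 29 signalling genes passed, in both comparisons against Control. Over all genes 4.28% passed in RUNX1(41-214) and 0.347% in Runx1KO against Control. At an unadjusted p under 0.05 in limma the counts were 5 and 2 of 29, and 3 in RUNX1(41-214) against Runx1KO. Gng11, a gamma subunit of heterotrimeric G proteins, rose by 1.26 ± 0.18 in RUNX1(41-214) (adjusted p = 0.00212) and by 1.00 ± 0.18 in Runx1KO cells (adjusted p = 0.0458). It was at 11.25 ± 0.09 in RUNX1(41-214), 10.99 ± 0.17 in Runx1KO and 9.99 ± 0.38 in Control cells. The inhibitory alpha subunits Gnai2 and Gnai3 were at -0.04 and 0.11 in RUNX1(41-214) and at 0.11 and 0.20 in Runx1KO, and the Rac activator Dock2 was at 0.25 in RUNX1(41-214) and 0.36 in Runx1KO, none of them past the threshold. Rgs10 and Gng2 were at 0.70 ± 0.22 and 0.55 ± 0.19 in RUNX1(41-214) against Control (adjusted p = 0.118 and 0.169). The median of the 29 was 0.20 in RUNX1(41-214) and 0.15 in Runx1KO against Control, with 19 and 26 of them above 0. The list summed to 48230 to 51200 in RUNX1(41-214), 48410 to 53210 in Runx1KO and 41670 to 45870 in Control cells.

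Ccr9, Ccr1 and Ccr2 lie in 1 cluster on mouse chromosome 9, and none of their measured neighbours there passed. In the RefSeq order, Lztfl1, Ccr9, Fyco1, Cxcr6, Xcr1, Ccr1, Ccr1l1, Ccr3 and Ccr2 follow each other, and of these 9 genes Ccr9 and Ccr2 passed in some comparison. In RUNX1(41-214) against Control, Lztfl1 on one side of Ccr9 was at -0.37 ± 0.21 and Fyco1 on the other at 0.25 ± 0.32. On the brightest probe set of each gene, Cxcr6 was at -0.14 ± 0.21, Xcr1 at -0.09 ± 0.16, Ccr1l1 at -0.14 ± 0.21 and Ccr3 at 0.36 ± 0.28. In Runx1KO against Control the brightest probe sets of these 6 genes ranged from -0.44 (Lztfl1) to 0.43 (Fyco1). On those probe sets 0 of them had an unadjusted p under 0.05 in limma. The other Cxcr6 probe set, in the limma fit over all probe sets, was at -0.56 ± 0.32 there (adjusted p = 0.864). In RUNX1(41-214) against Control that probe set was at -1.15 ± 0.32 (unadjusted p = 0.00407, adjusted p = 0.0928) and did not pass. Its RUNX1(41-214) arrays lay below all others after normalization. It was in the dim range in every group, with means of 4.19 in RUNX1(41-214), 4.79 in Runx1KO and 5.34 in Control cells.

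Other genes with the most similar profile over the 9 arrays were found for the 4 receptors that passed in some comparison, by the root mean square difference of values centred on each gene's mean. For Cxcr2 they were the exchanger Slc24a3 (0.456), Cpa3 (0.513) and the cannabinoid receptor Cnr2 (0.539), beside a standard deviation of 1.55 of Cxcr2 over the arrays. For Ccr2 they were the glycosyltransferase B3gnt5 (0.408), the membrane protein Emp1 (0.463) and the sorting receptor Sorl1 (0.484), beside a standard deviation of 1.27. B3gnt5 (0.429) also came first for Ccr9, followed by the adenylate kinase Ak4 (0.448) and the actin crosslinker Actn1 (0.459), with a standard deviation of 1.06. For the dim Ccr7 they were the transcription factor Ets1 (0.408), Notch1 (0.427) and As3mt (0.438), with a standard deviation of 0.796. All are in log2 units over 9 arrays, and these likenesses include the group differences themselves.

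Because the fragment keeps the DNA-binding domain of RUNX1, the promoters of the receptors that changed were read for the letters that Runt domains bind. RefSeq promoter windows of 300 bases (250 before the transcription start to 50 after it, build GRCm38.p6) were at hand for 7 of the 8 receptors, all but Ccr7. The windows of the rising Cxcr2 and of the falling Ccr9 and Ccr2 are shown whole, 5′ to 3′ on the gene's strand, with capitals for the ETS core AGGAAG or its reverse complement CTTCCT. None of the 3 windows holds the RUNX core TGTGGT or its reverse complement ACCACA.

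Cxcr2 chr1:74153744-74154043 (+): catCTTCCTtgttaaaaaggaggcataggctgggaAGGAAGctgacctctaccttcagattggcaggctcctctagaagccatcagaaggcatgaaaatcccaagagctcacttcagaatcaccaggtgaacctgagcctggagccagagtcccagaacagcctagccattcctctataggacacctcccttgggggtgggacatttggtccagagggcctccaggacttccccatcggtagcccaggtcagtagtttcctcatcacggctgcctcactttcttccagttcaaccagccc
Ccr9 chr9:123766961-123767260 (+): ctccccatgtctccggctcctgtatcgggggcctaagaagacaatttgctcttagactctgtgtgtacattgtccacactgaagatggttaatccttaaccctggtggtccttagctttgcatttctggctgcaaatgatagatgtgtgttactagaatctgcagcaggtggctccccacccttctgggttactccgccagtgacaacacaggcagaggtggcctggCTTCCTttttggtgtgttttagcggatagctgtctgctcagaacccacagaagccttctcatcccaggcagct
Ccr2 chr9:124101933-124102232 (+): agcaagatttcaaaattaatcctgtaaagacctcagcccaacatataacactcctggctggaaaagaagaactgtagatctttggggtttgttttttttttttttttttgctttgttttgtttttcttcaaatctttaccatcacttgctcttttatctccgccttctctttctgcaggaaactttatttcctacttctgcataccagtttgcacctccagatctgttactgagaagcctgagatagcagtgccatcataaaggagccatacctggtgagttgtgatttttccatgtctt

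The RUNX core was found in the windows of Ccr1, Cx3cr1 and Cxcr3, receptors that passed in no comparison. That is 3 of 7 windows, where 16.8% of all 32851 RefSeq windows of this length hold it on either strand. The matches are shown in capitals with 10 bases on each side.

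Ccr1 chr9:123968735-123968760 (-): ctcctcactgACCACAagaactctat
Cx3cr1 chr9:120068335-120068360 (-): aagatagggtACCACAcaggaaacca
Cxcr3 chrX:101734242-101734267 (-): tattcacctgACCACAggcgtggcag
Cxcr3 chrX:101734121-101734146 (-): caagttcccaACCACAagtgccaaag

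The related form TGCGGT (or ACCGCA) was in 1 of the 7 windows, that of Cx3cr1, and in 6.45% of all windows. The ETS core was in 3 of 7 (Ccr9, Cxcr2 and Cxcr3) and in 35.4% of all windows, and the GATA core GATAAG (or CTTATC) in 0 of 7 and in 7.44% of all. The motifs differ in their letters and a stretch of sequence is counted for each motif it holds. A match or its absence in this window is a description of the letters.

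**Figure D4:**
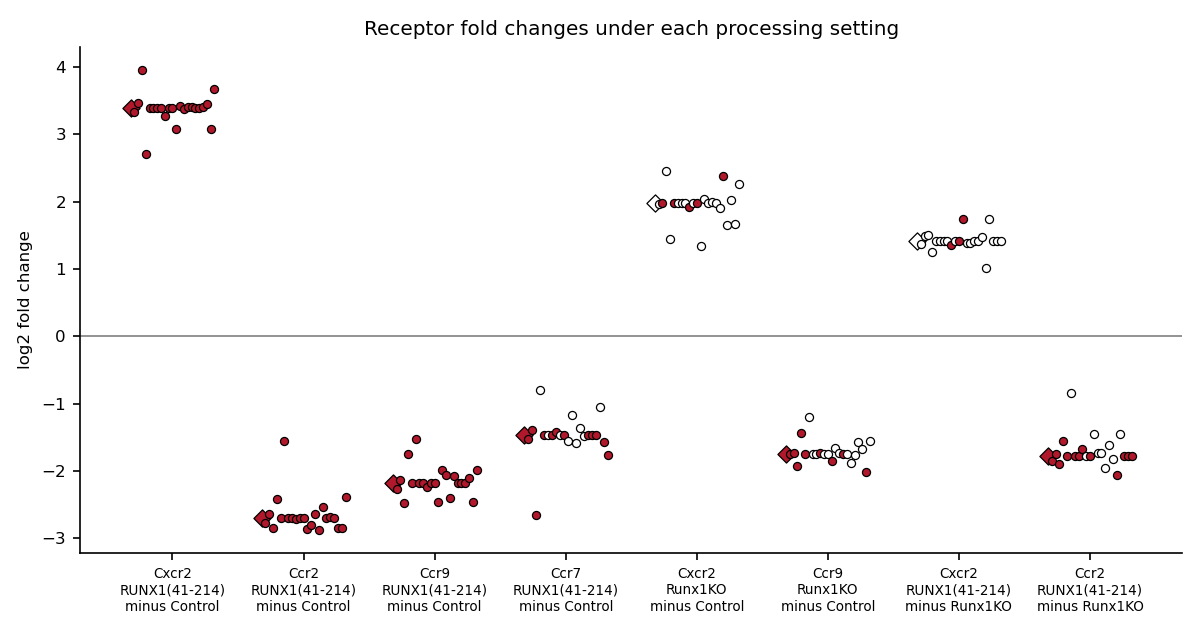
Log2 fold change of the receptors in 8 comparisons under the setting used in the text (diamond, at the left of each cluster) and under each of the alternatives (small circles); filled symbols passed an adjusted p of 0.05. Cxcr2, Ccr2 and Ccr9 in RUNX1(41-214) minus Control are filled under every setting, and the other 5 clusters hold both filled and open symbols.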

How the data were processed

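The deposited values are signal intensities per probe set on a linear scale. Per the labels' protocols, RNA was purified with Qiagen microcolumns, and the Affymetrix two-cycle procedure, which amplifies small amounts, made the biotin-labelled target. How the authors summarised and scaled these values is not given in the sources used here. In all, 64 control probe sets were left out. Signals were converted to log2(signal + 16), which understates folds of dim genes, and quantile normalized. Of 22626 probe sets, 20380 carried 1 gene symbol, 691 several and 1555 none in the platform annotation; symbols were updated through RefSeq gene identifiers (assembly GRCm38.p6), and promoter sequences are RefSeq's of that build. The probe set with the highest mean stood for a gene.

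Group means were estimated from all 9 arrays over 12393 genes with limma 3.58.1 in R 4.3.3 (lmFit, eBayes with trend; 6 residual and 5.60 prior degrees of freedom). Adjusted p-values are two-sided, by Benjamini-Hochberg over all genes of a contrast, with a threshold of 0.05. The same fit over all probe sets gave the values of single probe sets. The procedure was tested on simulated data. Precision is limited by the number of arrays, with a median standard error of 0.20 on the log2 scale. The receptors and the gene lists were chosen with earlier results of these data known. Genes were chosen by rule, though not all that it allows are named: every receptor, up to 4 genes of a list past the threshold per contrast or else the 2 of lowest p, the 2 brightest cell type markers of a list, ligands and cluster neighbours of the receptors, and the 3 genes most like each receptor that passed, among genes above the median signal. Outside this rule, Runx1, Kit, Cd34, Csf1r, Csf3r, Cd3e, Fcgr3, S100a9, Camp, Mpo, Tpsb2, Cma1, Gnai2, Gnai3 and Dock2 are given values for reference where the rule does not name them, chosen after their values were seen. The same holds for Rag1, Rag2, Flt3, Satb1, Cd27, Fcer1a, Mcpt8, S100a8, Lcn2, Cd8a, Bst2, Elane, Rgs10, Gng2 and Pf4. Alternatives were other offsets, scaling, filters and probe set rules, array weights, a minimum fold, a replicate block and leaving out arrays; leaving out both arrays of high S100a9 was added after seeing the data. Same-numbered replicates were not paired: their deviations correlated from -0.174 to 0.418. The highest values were between Control and Runx1KO, at 0.409 for replicates 2 and 0.418 for replicates 3. Arrays of unlike number reached at most 0.257. Whether these arrays shared a step of handling is not given in the labels and was not tested. The list of cluster neighbours also held Ccrl2, Ltf, Rtp3, Lrrc2 and Tdgf1, which lie elsewhere on the chromosome in this assembly, and 0 of its 13 measured genes passed. In RUNX1(41-214) against Control, 2 of 9 B cell genes fell (Vpreb1 and Blnk), and of 6 erythroid genes 2 rose (Alas2 and Slc4a1) and 1 fell (Tfrc).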

Additional observations from a re-analysis of the deposited data

How the results depend on the processing

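Of the 24 pairs of receptor and comparison, 6 passed, and 3 of these passed under all 22 alternatives (21 or 22 could be run for each pair, since Ccr7 and Cx3cr1 are removed when dim genes are left out): Cxcr2, Ccr2 and Ccr9 in RUNX1(41-214) against Control. Of the 18 that did not pass, 16 passed under no alternative. The number of receptors past the threshold in RUNX1(41-214) against Control was 3 to 4 under every alternative and 3 to 4 over the 9 omissions of an array. In RUNX1(41-214) against Runx1KO it was 1, but 0 with the mean of probe sets with a minimum fold of 1.2 and without both arrays of high S100a9, 2 with array weights and with the replicate block, and 0 to 1 over the omissions. In Runx1KO against Control it was 1, but 2 with median scaling, with dim genes left out and with array weights, 0 with the mean of probe sets, with all probe sets, with only the groups compared, with a minimum fold of 1.2 and without both arrays of high S100a9, and 0 to 1 over the omissions. Over all genes, the count for RUNX1(41-214) against Control was 531, 294 with a minimum fold of 1.2, 173 without both arrays of high S100a9 and 297 to 612 over the omissions (298 and 297 without RUNX1(41-214) replicates 1 and 2, 352 without Control replicate 3). For RUNX1(41-214) against Runx1KO it was 168, 371 with array weights, 90 with a minimum fold of 1.2, 78 without both arrays of high S100a9 and 74 to 207 over the omissions (91, 74 and 106 without RUNX1(41-214) replicates 1, 2 and 3, 92 without Runx1KO replicate 2). For Runx1KO against Control it was 43, 9 with only the groups compared, 18 with a minimum fold of 1.2, 6 without both arrays of high S100a9 and 14 to 50 over the omissions (25 and 27 without RUNX1(41-214) replicates 1 and 2, 28, 22 and 14 without Runx1KO replicates 1, 2 and 3, 21 and 20 without Control replicates 1 and 3). Folds that did not pass changed sign for Cx3cr1 in RUNX1(41-214) against Control (0.076 with the mean of probe sets, and -0.33 to 0.040 over the omissions with the highest without Control replicate 3), Cxcr4 in RUNX1(41-214) against Runx1KO (-0.59 to 0.38 over the omissions, with the highest without Runx1KO replicate 1), Ccr1 in Runx1KO against Control (-0.37 without both arrays of high Gapdh ratio) and Cxcr3 in Runx1KO against Control (-0.048 to 0.24 over the omissions, with the lowest without Control replicate 1, and -0.047 without both arrays of high S100a9). The cause was not tested. With the replicate number as a block, Ccr9 in Runx1KO against Control was at -1.74 with an adjusted p of 0.0577 and no longer passed, and Cxcr2 passed there (0.0181). Same-numbered arrays did not all correlate best with each other, so the numbers were not treated as pairs.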
